A study of Mus musculus with 16 samples.

Results

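Class switch recombination genes and the genes that repair breaks in the antibody switch regions were described in mouse B cells that lack miR-221 and miR-222. The set was a list of 32 gene symbols chosen by function, with earlier results of these data known. Each symbol was looked up in the RNA-seq table. All 32 were found among its 43432 gene rows, with 1 protein-coding row each. All 32 also passed the filter on low values, a mean of at least 10 normalized counts over the 8 RNA-seq libraries, which left 13091 genes to test. Among 962700 regions of RNA bound by Ago2, 1799 lay in these 32 genes on the same strand.

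The cells were splenic B cells with the strain label C57B6L/J, cultured to day 4 with an antibody to CD40 at 500 ng/ml, IL4 at 25 ng/ml and IL21 at 10 ng/ml. They came from KO mice, which the series title ties to miR-221 and miR-222, and from Flox mice, whose columns the deposited table calls WT; all groups had the same strain label and culture. RNA-seq was made from 4 KO and 4 Flox samples, and Ago2 HITS-CLIP, which sequences RNA crosslinked to the miRNA-carrying protein Ago2, from another 4 KO and 4 Flox samples. The labels used here name no Cre driver and do not say whether the samples of a group came from separate animals, so the p-values below measure only the spread between these samples, which may be technical.

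In class switch recombination an activated B cell exchanges the constant region of its antibody heavy chain. A cytidine deaminase acts on transcribed switch regions, uracil removal and mismatch repair turn the uracils into DNA breaks, and break signalling, end protection and end joining connect a pair of distant breaks. CD40 signals and IL4 are known to start this process in mouse B cells. miRNAs guide Ago2 to RNAs that pair with the miRNA seed, and usually lower those RNAs. miR-221-3p and miR-222-3p, the miRNAs named in the series title, are printed because they are what the KO cells are labelled to lack. Capitals mark the seed, bases 2 to 8, and the sequences are those of RefSeq on GRCm38.p6, at chrX:19146307-19146329 and chrX:19146901-19146923 on the minus strand.
miR-221-3p: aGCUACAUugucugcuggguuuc
miR-222-3p: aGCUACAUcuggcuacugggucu
Both share the seed GCUACAU.

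The KO libraries of the RNA-seq held 22947689 to 39236132 reads and the Flox libraries 25421025 to 39616596; the lowest count of any of the 32 genes in a library was 76 reads. The first principal component of all tested genes, which held 33.5% of the variance, put KO 1 to KO 4 at -38.0, -15.3, -35.6 and 7.47 and the Flox libraries between 14.5 and 26.5, so KO 1 and KO 3 stood farthest from the Flox libraries. All 8 B cell markers looked up were present, with summed normalized counts of 98725 to 123042 in KO and 111357 to 117208 in Flox. At an unadjusted p under 0.05, 3 of the 8 were higher and 1 lower in KO, beside 7.74% and 7.39% of all tested genes. The 3 higher were Pax5, Ebf1 and Cd22, with log2 fold changes of KO over Flox of 0.57, 0.37 and 0.26. The lowest of the 8 was -0.38. All KO libraries lay above the Flox libraries for Pax5 (limma adjusted p = 0.205). The T cell genes Cd3e, Cd3d, Cd3g, Cd4, Cd8a and Trac reached at most 12.7 normalized counts in any library, and Cd247 at most 26.6, in Flox 3. The T cell list of 8 genes summed to 1597 to 1959.8 in KO and 1431 to 1647 in Flox, most of it Lck. The myeloid list of 8 genes, of which S100a8 was at 0 throughout, summed to 72.0 to 103 in KO and 47.9 to 92.6 in Flox. The NK list of 4 genes, with Ncr1 at 0, summed to 0 to 11.6 in KO and 0.8 to 15.1 in Flox, and the erythroid list of 5 genes, with Hbb-bs and Hba-a1 at 0, to 6.9 to 50.8 in KO and 35.3 to 67.1 in Flox. The plasma cell list of 5 genes summed to 50813 to 63720.4 in KO and 52053 to 61409 in Flox. In such bulk samples fewer cells of a type and less RNA per cell cannot be told apart, and the part of the marker differences in the results was not tested.

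None of the 32 genes passed the test between KO and Flox cells, and the 5 with an unadjusted p under 0.05 were all higher in KO. These were Paxip1, Mdc1, Rnf168, Exosc10 and Supt6, with log2 fold changes between 0.27 and 0.41. The test was limma-trend on log2 of the normalized count plus 1, two-sided, with Benjamini-Hochberg adjustment over all 13091 genes and a threshold of 0.05. It called 9 genes in all, 0.0687% of those tested, and 0 of the 32, whose adjusted p ran from 0.239 to 0.993. edgeR's quasi-likelihood test and DESeq2, run on the recovered reads, also called 0 of the 32, with 6 at an unadjusted p under 0.05 in each. Over all genes tested, 15.0% in edgeR and 15.9% in DESeq2 had an unadjusted p under 0.05. The authors' deposited table gave an FDR under 0.05 to 191 of 12118 genes and to 0 of the 32; the lowest FDR of the 32 in that authors' deposited table was 0.0598, for Paxip1.

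Read against the whole table, the count of 5 is 15.6% of the set, and 15.1% of all tested genes had an unadjusted p under 0.05 in either direction. For the direction higher in KO the background was 7.74%, and for lower in KO it was 7.39%. The KO libraries all lay above the Flox libraries in 3 of the 32 genes, Paxip1, Rnf168 and Supt5, which is 9.38% against 4.18% of all tested genes; all KO libraries lay below in 0 of the 32, against 3.79%. Log2 fold changes were positive for 25 of the 32 and for 48.5% of all tested genes. Their median was 0.06, against -0.01 over all tested genes. These counts are descriptions of the set, and no test of the set was made.

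**Figure D1:**
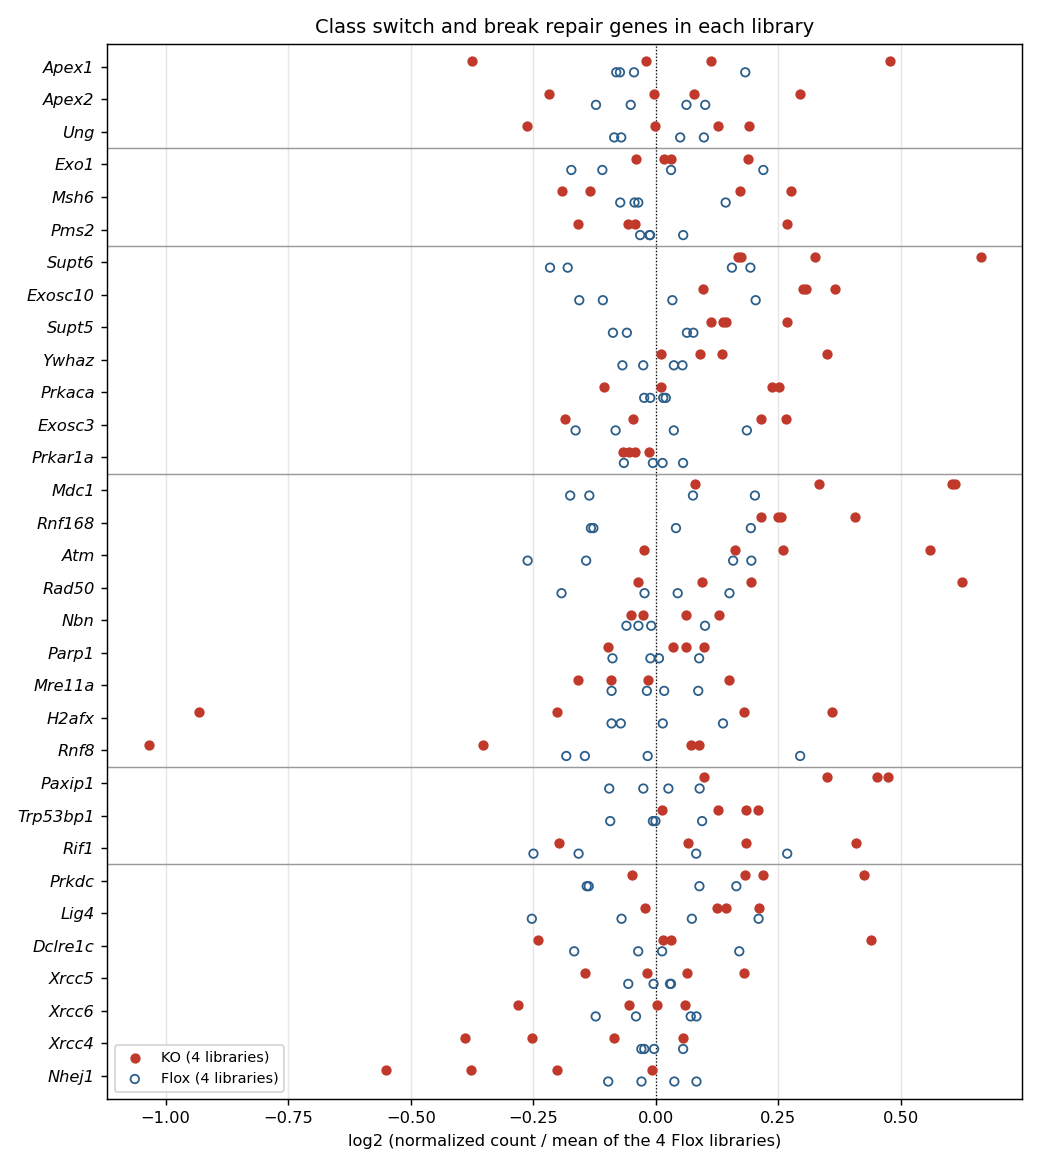
Log2 ratio of the normalized count in each library to the mean of the 4 Flox libraries (x axis) for the 32 genes, grouped by role (lines divide the groups); filled red points are KO libraries and open blue points are Flox libraries. The KO points are spread more widely than the Flox points for 26 of the 32 genes by coefficient of variation, and all 4 KO points lie right of all Flox points for Paxip1, Rnf168 and Supt5.

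The factors that load the deaminase onto transcribed switch regions gave 2 of those 5 genes. Of the 7 genes in this group (Supt5, Supt6, Exosc3, Exosc10, Prkaca, Prkar1a and Ywhaz), 6 had positive log2 fold changes, with a median of 0.15. Supt6 (chr11:78206746-78245987, minus strand) encodes Spt6, a histone chaperone that travels with RNA polymerase II. It had 7967.5, 7183, 10076 and 7151 normalized counts in KO 1 to 4, against 7086.5, 7274, 5618 and 5479.6 in Flox 1 to 4. The KO mean of 8094 ± 1374 stood beside a Flox mean of 6365 ± 947 (SD, n = 4 each), with KO 3 highest and KO 2, KO 4, Flox 1 and Flox 2 close together. In the fit KO was 0.34 higher on the log2 scale (SE 0.13, limma adjusted p = 0.288).

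Exosc10 (chr4:148558429-148582401, plus strand) encodes a catalytic 3′ to 5′ exonuclease of the nuclear RNA exosome, the complex that trims and degrades RNA and is known to help the deaminase reach both DNA strands. It had 4299.8, 4318, 4500.0 and 3733.5 normalized counts in the KO libraries, against 4019.6, 3573, 3239 and 3132 in the Flox libraries. KO 4 lay below Flox 1, and the other KO libraries lay above all Flox libraries. The log2 fold change was 0.27 (SE 0.10, limma adjusted p = 0.265).

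Supt5 (chr7:28314891-28338746, minus strand), which encodes the elongation factor Spt5 that binds the deaminase at paused polymerase, had 7657, 7633, 8356 and 7499 normalized counts in KO, against 7316, 7249, 6659 and 6529 in Flox. The groups did not overlap, and the lowest KO library was close to the highest Flox library. The log2 fold change was 0.17 (SE 0.08, unadjusted p = 0.0518, limma adjusted p = 0.332). Ywhaz, a 14-3-3 adaptor, had 6499, 5599.7, 5428 and 5137 normalized counts in KO and 5234, 5012, 4867 and 5298 in Flox, with a log2 fold change of 0.15. Prkaca, the catalytic subunit of protein kinase A that phosphorylates the deaminase, was at 0.10, and the exosome subunit Exosc3 at 0.07. Prkar1a, the regulatory subunit of the same kinase, was the only negative gene of the group at -0.04, with 18214 to 18889 normalized counts in KO and 18229 to 19819.9 in Flox.

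The 3 genes of uracil removal and strand cutting and the 3 of mismatch repair had small positive fold changes and none had an unadjusted p under 0.05. Ung removes uracil from DNA, and Apex1 and Apex2 cut the strand at the abasic site; their log2 fold changes were 0.02, 0.05 and 0.04. Apex1 had the lowest p of its group (0.735), with 5546, 7142, 3955 and 5061 normalized counts in KO and 5823, 4975, 4852 and 4877 in Flox. KO 2 was above and KO 3 below every Flox library, so the KO range enclosed the Flox range; the same held for Ung and Apex2.

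In mismatch repair, Msh6 recognises the mismatch with its partner, Pms2 forms part of the nicking complex and Exo1 resects the nicked strand. Their log2 fold changes were 0.03, 0.0028 and 0.06. Exo1 had 1479, 1665, 1493 and 1420.3 normalized counts in KO and 1701, 1493, 1355 and 1297 in Flox (unadjusted p = 0.589). Here the Flox range enclosed the KO range, and for Msh6 and Pms2 the KO range enclosed that of Flox.

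Break sensing and signalling gave 2 of the 5 genes, and also 3 of the 7 genes of the whole set with a negative fold change. The 9 genes had a median log2 fold change of 0.03, with 6 positive. Mdc1 (chr17:35841515-35859670, plus strand) encodes the scaffold that binds phosphorylated H2AX at a break. It had 2998, 2084, 3012 and 2484 normalized counts in KO, against 2269.7, 2079, 1796 and 1748 in Flox. KO 2 lay among the Flox libraries and the other 3 KO libraries above them, and the fitted difference of 0.41 on the log2 scale (SE 0.13, limma adjusted p = 0.247) had the greatest size in the set.

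Rnf168 (chr16:32277459-32301434, plus strand) encodes the ubiquitin ligase that marks H2A beside a break, the mark to which 53BP1 binds. It had 1971, 2019, 2250.0 and 2029 normalized counts in KO, against 1943, 1748, 1555 and 1549.7 in Flox. The groups did not overlap; KO 1 and Flox 1 were close to each other. The KO mean was 2067 ± 124 and the Flox mean 1699 ± 187 (SD, n = 4 each), which differ by 0.29 on the log2 scale in the fit (SE 0.09, limma adjusted p = 0.25). Rnf8, the ligase that acts before Rnf168 in the same step, was at -0.29 (SE 0.24, limma adjusted p = 0.551), with 224, 167, 104 and 227 normalized counts in KO and 188, 193, 211 and 261 in Flox. The 104 of KO 3 was the lowest of the 8 libraries. Rnf8 shares its strand and nearly its whole span with the protein-coding annotation Gm28043 (mean of 46.6 normalized counts, against 197 for Rnf8), so its reads could have been split between the annotations and its value is uncertain.

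H2afx encodes the histone variant whose phosphorylation spreads from a break. It had 4989, 5648, 2307 and 3826 normalized counts in KO and 4841, 4135, 4189 and 4445.5 in Flox, and its fitted log2 fold change was -0.15 (SE 0.22), with a limma adjusted p of 0.765. The highest KO value was 2.45 times the lowest, against 1.17 times in Flox. Atm, the kinase that phosphorylates H2AX, was at 0.25 (SE 0.14) and Rad50 at 0.22 (SE 0.13), both with KO 3 as the highest library (2786.5 for Atm and 4360.1 for Rad50). Nbn and Mre11a, which form a complex with Rad50 at broken ends, were at 0.03 and -0.03, and Parp1, which adds poly(ADP-ribose) at breaks, at 0.03.

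End protection held the gene with the lowest p of the set, Paxip1. Paxip1 (chr5:27740080-27791691, minus strand) encodes PTIP, which binds 53BP1 and is also part of a histone H3 lysine methyltransferase complex that acts on switch region transcription. It had 4987, 4575, 4906 and 3841 normalized counts in KO, against 3818, 3653, 3360.2 and 3526 in Flox. The groups did not overlap, and KO 4 and Flox 1 nearly met. The KO mean was 4577 ± 522 and the Flox mean 3589 ± 194 (SD, n = 4 each), which differ by 0.34 on the log2 scale in the fit (SE 0.10, unadjusted p = 0.00395, limma adjusted p = 0.239). DESeq2 gave it an adjusted p of 0.0543, the lowest of the set under any of the 17 alternatives run. Trp53bp1, which encodes 53BP1, and its partner Rif1, which protects ends from resection, were both positive at 0.13 (SE 0.08 and 0.14).

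End joining, the step that seals the break, had no gene with an unadjusted p under 0.05. Of its 7 genes 4 were positive, with a median of 0.02. Prkdc, the DNA-dependent protein kinase, had the lowest p (0.111), with 1690.1, 1404.5, 1950.5 and 1649 normalized counts in KO and 1628, 1545, 1318 and 1321 in Flox and a log2 fold change of 0.20 (SE 0.12). Its KO and Flox libraries overlapped. Lig4, the ligase, was at 0.12, and the nuclease Dclre1c (Artemis) at 0.07. The Ku subunits Xrcc5 and Xrcc6 were at 0.02 and -0.07. Xrcc4, the partner of Lig4, was at -0.17 (SE 0.11), and the stabilising factor Nhej1 at -0.28 (SE 0.16), with 112, 99.1, 87.9 and 128 normalized counts in KO and 132, 120.4, 126 and 136 in Flox. For Nhej1 each KO library was below the Flox mean, and KO 4 was above the lowest Flox library.

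**Figure D2:**
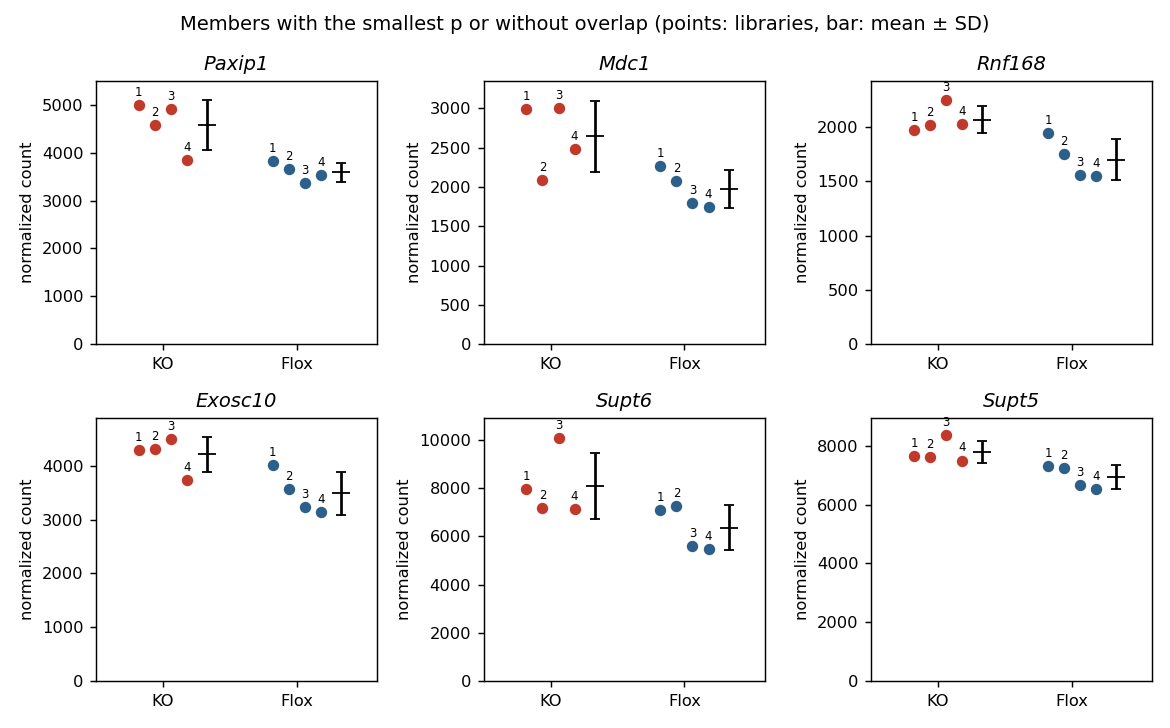
Normalized count (y axis, from 0) in each of the 4 KO and 4 Flox libraries, with the mean ± SD beside the points, for the 5 genes with an unadjusted p under 0.05 and for Supt5; numbers name the library. For Paxip1, Rnf168 and Supt5 the lowest KO point lies above the highest Flox point, while for Mdc1, Exosc10 and Supt6 at least 1 KO point lies inside the Flox range.

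The promoter windows of the 3 genes whose groups did not overlap are printed to show what sequence their transcripts start from. Each holds 250 bases before and 50 after the RefSeq start on GRCm38.p6, at chr5:27791501-27791800 (minus strand) for Paxip1, chr16:32277211-32277510 (plus strand) for Rnf168 and chr7:28338670-28338969 (minus strand) for Supt5. Their starts lay 141, 2 and 27 nt from the gene starts in the deposited table. Capitals mark matches to 6 motifs searched on both strands, which are known from factors that bind promoters: GGGCGG of the Sp family, CCAAT of NF-Y, CCGGAAG of the ETS family, GCGCATGC of NRF1, and TTTCCCGC and its variant TTTGGCGC of the E2F family.
Paxip1: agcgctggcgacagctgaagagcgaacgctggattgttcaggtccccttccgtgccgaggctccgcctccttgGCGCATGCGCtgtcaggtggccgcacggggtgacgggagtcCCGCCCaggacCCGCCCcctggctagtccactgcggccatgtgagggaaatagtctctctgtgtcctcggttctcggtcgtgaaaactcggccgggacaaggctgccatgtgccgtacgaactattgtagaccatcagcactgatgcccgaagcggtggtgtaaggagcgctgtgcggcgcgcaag
Rnf168: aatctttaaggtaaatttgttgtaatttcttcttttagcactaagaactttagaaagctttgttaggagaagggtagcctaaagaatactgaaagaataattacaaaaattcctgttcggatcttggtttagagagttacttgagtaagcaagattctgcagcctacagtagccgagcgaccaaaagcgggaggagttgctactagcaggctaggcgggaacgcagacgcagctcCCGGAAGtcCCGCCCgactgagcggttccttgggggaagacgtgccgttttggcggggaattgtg
Supt5: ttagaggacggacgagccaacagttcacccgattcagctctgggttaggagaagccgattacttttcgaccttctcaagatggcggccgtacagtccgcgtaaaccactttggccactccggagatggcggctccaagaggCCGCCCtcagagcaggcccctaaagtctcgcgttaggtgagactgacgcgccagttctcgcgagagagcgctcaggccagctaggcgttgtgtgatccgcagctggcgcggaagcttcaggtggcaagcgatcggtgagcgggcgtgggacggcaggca
Paxip1 held GCGCATGC at 2 places that overlap, 1 on each strand, and GGGCGG at 2 places; Rnf168 held CCGGAAG and GGGCGG once each, and Supt5 held GGGCGG once, all GGGCGG matches being on the reverse strand. RefSeq windows matched 24 of the 32 genes by symbol, with starts a median of 18 nt and at most 28534 nt from those of the deposited table. GGGCGG was in 20 of these 24, against 35.7% of all 32851 windows. CCAAT was in 11 (37.4% of all windows), CCGGAAG in 7 (8.86%), GCGCATGC in 5 (2.71%), TTTCCCGC in 3 (1.07%) and TTTGGCGC in 0 (0.514%). The median GC content of the 24 windows was 59.8%, against 52.7% over all windows, and their median number of CpG was 21.5, against 7. The windows of all genes include those of genes not expressed here, and a match describes letters only.

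The KO libraries differed among themselves more than the Flox libraries did across the set. The median coefficient of variation was 13.4% in KO and 7.03% in Flox, beside 15.5% in KO and 9.45% in Flox over all tested genes, and it was larger in KO for 26 of the 32. It was over 20% in KO for 5 genes. KO 3 was the highest of the 8 libraries for 16 of the 32 and the lowest for 8, while Flox 4 was the lowest for 11. KO 3 was the highest library for 4 of the 5 genes with an unadjusted p under 0.05 and for Supt5, and KO 1 was the highest for Paxip1.

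With KO 1 and KO 3 both left out, 2 of the 32 had an unadjusted p under 0.05, beside 6.22% of all tested genes. None of the 32 passed adjustment. The 2 genes were Rnf168 at 0.26 (SE 0.11) and Paxip1 at 0.23 (SE 0.09), while Mdc1 was at 0.21, Exosc10 at 0.21 and Supt6 at 0.18. KO 1 and KO 3 stood farthest from the Flox libraries on the first principal component of these same data, and only KO 2 and KO 4 remained. Leaving out such libraries can by itself lower the differences. With a single library left out, the count was 8 without KO 2 and 3 without Flox 3 or without Flox 4. The shares of all tested genes in these settings were 21.1%, 7.71% and 9.14%, against 15.1% with all libraries. Paxip1 and Rnf168 had an unadjusted p under 0.05 in 17 of the 17 alternatives, Mdc1 in 16, Exosc10 in 14, Supt6 in 13 and Supt5 in 5.

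**Figure D3:**
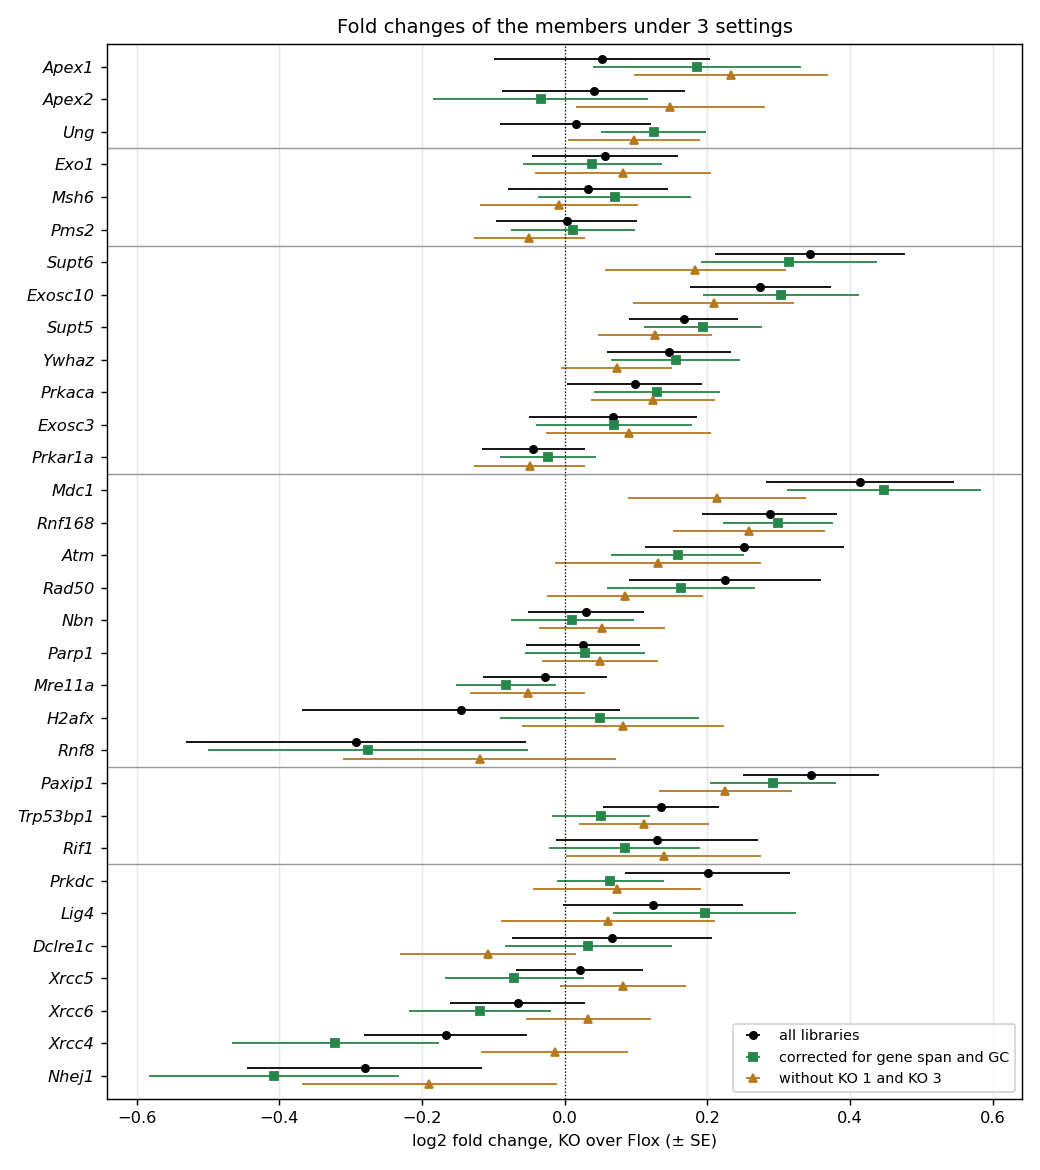
Log2 fold change of KO over Flox with its SE (x axis) for the 32 genes by role, with all libraries (black circles), corrected for gene span and GC content (green squares) and without KO 1 and KO 3 (brown triangles). The black and brown values of Mdc1 are 0.41 and 0.21, those of Rnf168 0.29 and 0.26, and Xrcc4 and Nhej1 are lowest with the correction, at -0.32 and -0.41.

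Fold changes in these libraries moved with gene span, the distance on the genome over which a gene is annotated. Over genes with a mean of at least 50 normalized counts, the median log2 fold change was -0.11, -0.06, -0.02, 0.05 and 0.12 in 5 groups of equal size, in order of rising span. These groups held 2, 3, 10, 10 and 7 of the 32 genes. Mdc1, Rnf168, Exosc10 and Supt5 lay in the middle group, at 0.44, 0.31, 0.30 and 0.19 above its median, and Supt6 and Paxip1 lay in the next, both 0.30 above its median. With a correction of each library for span and GC content, none of the 32 passed adjustment. In that fit 8 of the 32 had an unadjusted p under 0.05, beside 15.8% of all genes tested. Of the 8, 6 were higher in KO, the 5 above and Supt5 (0.19). The other 2 were lower, Xrcc4 at -0.32 (SE 0.14, limma adjusted p = 0.314) and Nhej1 at -0.41 (SE 0.18, limma adjusted p = 0.301).

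**Figure D4:**
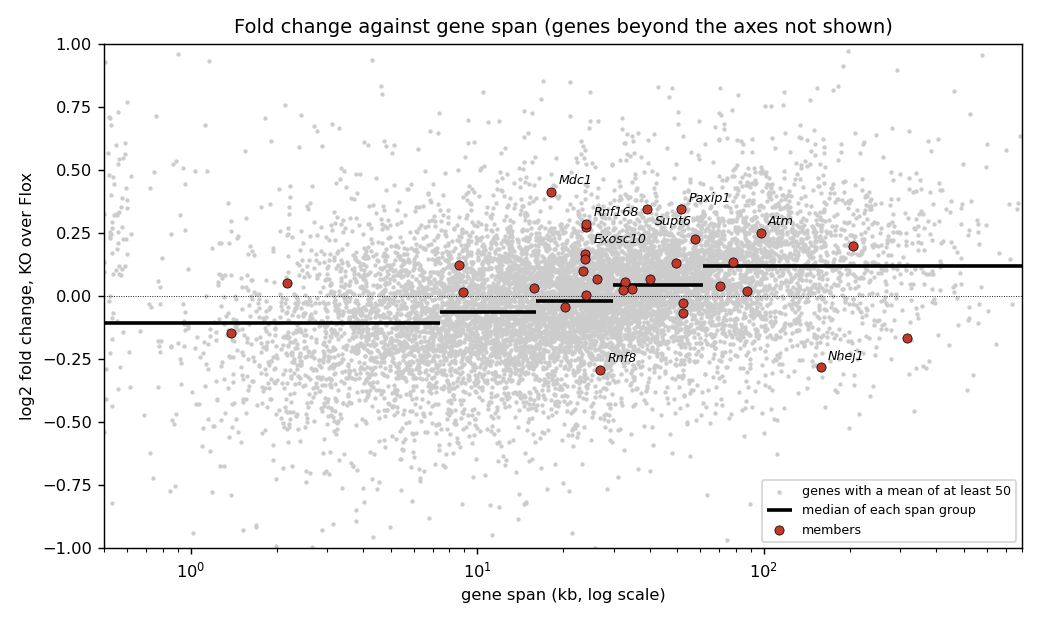
Log2 fold change of KO over Flox (y axis) against gene span in kb (x axis, log scale) for genes with a mean of at least 50 normalized counts (grey), with the median of each of 5 groups of equal size by span (black bars) and the 32 genes (red). The bars run from -0.11 at the shortest spans to 0.12 at the longest; Mdc1, Rnf168, Exosc10, Supt6 and Paxip1 lie above the bars of their span groups.

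Other genes of the same pathways, in 8 lists that exclude the 32, had no call by limma among 83 tested genes. At an unadjusted p under 0.05, 6 of the 83 were higher in KO and 5 lower, beside 7.74% and 7.39% of all tested genes. Log2 fold changes were positive for 43 of the 83 and for 48.5% of all tested genes. The counts of the single lists below stand beside the same shares, and no list was tested as a set. Elongation factors had 2 of 13 higher, among them Nelfa of the pausing complex (0.30) and Rtf1 of the PAF complex (0.27), with a list median of 0.10. Protein kinase A subunits and anchors had 2 of 6 higher, the anchors Akap11 (0.30) and Akap9 (0.32), with a median of 0.15. The 14-3-3 adaptors had 2 of 6 higher, Ywhah (0.41) and Ywhae (0.24), and 1 lower, Ywhab (-0.19).

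In the rest of the RNA exosome 2 of 13 genes were lower at an unadjusted p under 0.05, Exosc9 (-0.21) and the cofactor C1d (-0.31), and the list median was -0.17. Base excision repair had 2 of 16 lower, among them the glycosylase Neil1 (-0.30), with a median of -0.09. The other mismatch repair genes (10 tested, median 0.01), the other end joining and processing genes (10 tested, median -0.13) and the shieldin and 53BP1 pathway (9 tested, median 0.04) had 0 in either direction. Among 13 proliferation genes Cdk1 was lower at an unadjusted p under 0.05 (-0.26), and the list median was 0.03.

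Ago2-bound regions were found in all 32 genes, beside 86.0% of the 13037 tested genes with coordinates. The deposited output pools the 4 replicates of each genotype and does not name its conditions, so no direction by genotype is given and no test was possible. A region is a run of joined 5-nt bins in 1 hidden state, where states 0 and 2 mark opposite differences between the conditions and state 1 marks none, and its score is the authors'. The median number of regions was 40.5 per gene in the set and 14 over all tested genes. Regions were 12.2 per 10 kb of span in the set and 9.10 over all genes (medians). The median of the highest score per gene was 10.1 in the set and 7.1 over all tested genes, and 23 of the 32 were above 7.1. The 13037 genes had passed only the filter of a mean of at least 10 normalized counts. They were not matched to the set for expression or span, and the set had the longer median span. Whether the set differs in Ago2 regions from genes of similar expression and span was not tested.

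Regions with a score of at least 5 were found in 28 of the 32, beside 61.4% of the same unmatched 13037 genes. Supt5, Lig4, Nhej1 and Xrcc6 had no such region. Of the 1799 regions in the set, 591 were in state 0, 1073 in state 1 and 135 in state 2, which is 32.9%, 59.6% and 7.50%, against 33.1%, 57.6% and 9.28% of all regions. The 165 regions past the score limit were 9.17% of the regions in the set, against 12.1% of all regions. Of these 165, 71 were in state 0 and 94 in state 2, and 111 had a mean difference score of at least 0.25 in either sign. No region past the score limit was in state 1, in the set or over all tested genes. The limit thus kept only regions in the 2 states that mark a difference, so a high score cannot be read as strong Ago2 binding alone. These 111 lay in 23 of the 32 genes, beside 54.7% of the 13037. Of the 165, 71 had their centre within 2000 nt of the gene's 3′ end. Of these 37 (52.1%) were in state 2, against 65.5% over all tested genes. Farther away 57 of 94 (60.6%) were, against 71.2%. The regions were spread unevenly over the genes, so these shares rest largely on a few of them. Near the 3′ end Ywhaz gave 10 in state 2 and 5 in state 0, Prkar1a 7 and 2, Rif1 5 and 4, Rnf168 4 and 5, and H2afx 2 and 6.

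Rnf168 held the region with the highest score of the set, 99.0. It lay at chr16:32299686-32299745 on the plus strand, with its centre 1719 nt from the 3′ end, in state 0 with a mean difference score of -0.28. Rnf168 held 64 regions, of which 17 were past the score limit, 9 of them within 2000 nt of the 3′ end and 8 farther. Others near the top region were in the opposite state, with a score of 23.6 and a mean difference of 0.23 at 2669 nt and with 17.7 and 0.33 at 2806 nt, so both signs were found in the same gene.

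Paxip1 held 69 regions with 4 past the limit. The highest, at chr5:27742151-27742185 on the minus strand, scored 30.8 in state 2 with a mean difference of 0.42, and its centre lay 2088 nt from the 3′ end. None of its regions had its centre within 2000 nt of the annotated 3′ end. Mdc1 held 47 regions with 4 past the limit, of scores up to 7.2, and Supt6 and Exosc10 held 2 each past it, of scores up to 6.1 and 8.7. The highest scores of Mdc1, Supt6 and Exosc10 were thus below those of Rnf168 and Paxip1, without replicates to test the difference. The top regions of Rnf168 (state 0) and Paxip1 (state 2) were in opposite states. No region was searched for a match to the miR-221 and miR-222 seed, and exons, introns and untranslated regions were not told apart. Whether these miRNAs bind any of the regions was therefore not tested.

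H2afx scored 92.1 at chr9:44334736-44334870, in state 0 with a mean difference of -0.32, and held 8 regions past the limit. The centre of its top region lay 109 nt from the 5′ end and 1274 nt from the 3′ end. H2afx spans only 1384 nt, less than the 2000 nt limit, so each of its 8 regions counts as near the 3′ end whatever its place in the gene. Exo1 scored 76.5 at chr1:175904381-175904430, in state 0 and 9084 nt from the 3′ end, its only region past the limit. No other annotated gene overlapped that region on its strand. Prkar1a scored 59.4 (chr11:109669321-109669455, state 2, 268 nt from the 3′ end) and held 24 regions past the limit. Ywhaz scored 41.4 (chr15:36770796-36770880, state 2, 68 nt from the 3′ end) and held 29, the most in the set. Then came Rif1 at 28.9 (560 nt), Prkdc at 24.2 (46062 nt), Trp53bp1 at 20 (5022 nt) and Prkaca at 18.4 (43 nt from the 3′ end). Among the 28 genes past the score limit, the region with the highest score lay within 2000 nt of the 3′ end in 11. The same share over all tested genes was not computed.

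**Figure D5:**
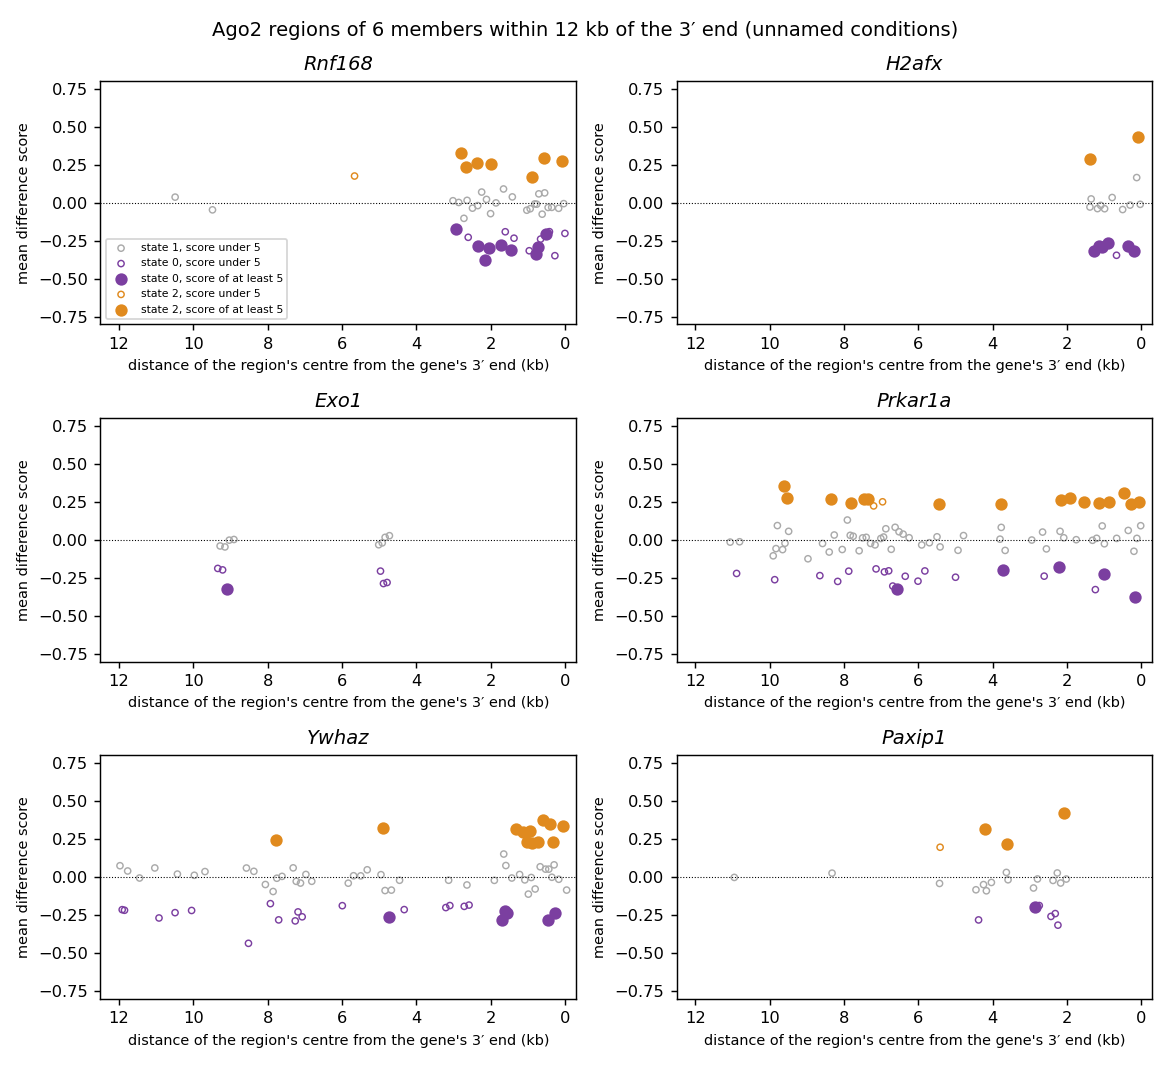
Mean difference score of each Ago2 region between the 2 unnamed conditions (y axis) against the distance of its centre from the gene's 3′ end in kb (x axis) for the 6 genes with the highest region scores, out to 12 kb. Colours give the hidden state and filled points have a score of at least 5; Rnf168 has filled points of both signs, Ywhaz has most of its filled points near the 3′ end in this window, and Paxip1 has none within its last 2 kb.

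Several of the 32 overlap another annotated gene, and whether the authors' counting used strand is not given in the sources used here. Beside Rnf8, the longest overlaps with expressed genes on the opposite strand were those of Xrcc6 with Desi1 (41340 nt), Dclre1c with Suv39h2 (8316 nt) and Trp53bp1 with Tubgcp4 (5490 nt). Supt6 shared 242 nt with Sdf2. Among the annotated protein-coding genes in the table, Paxip1, Rnf168, Mdc1, Exosc10 and Supt5 overlapped none.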

How the data were processed

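RNA-seq (4 KO, 4 Flox) and Ago2 HITS-CLIP (4 KO, 4 Flox) of cultured splenic B cells were analysed. The submitters' processing notes name cutadapt, Bowtie2, SAMtools, STAR, DESeq2, DESeq and mm9 without roles. Of the CLIP regions 87.5% overlapped a table gene on its strand, 7.69% did so on the other strand, and 24.5% did so once moved by 1000000 nt. These shares compare the deposited files with each other, so they show a shared build and cannot name it. For the 24 genes with a RefSeq window on GRCm38, the table starts lay a median of 18 nt and at most 28534 nt from the RefSeq starts. The positions were therefore taken as GRCm38, and starts on mm9 were not compared. The members and lists were chosen with earlier results of these data known.

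The deposited RNA-seq signal is gene counts divided by a size factor per library and rounded, as the values show: at least 99.89% were whole reads within 0.1 read. From the authors' table the log2 fold change, p-value and FDR, and GC percent were also read, per the file headers. The main test was limma-trend (limma 3.58.1, R 4.3.3) on log2(value + 1) over the 13091 genes with a mean of at least 10, fitted on the whole table; 759 rows had no symbol. edgeR 4.0.16 and DESeq2 1.42.0 on recovered reads, which called 9 and 199 genes in all, were alternatives. Depth was 22947689 to 39616596 reads. On simulated data of 13093 genes for KO against Flox, limma recovered 97% of genes changed by a log2 fold change of 1 and 24% of those changed by 0.5.

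The authors' CLIP output gives, per the file headers, a difference score and a hidden state per 5-nt bin, and a deposited score per region; 13147668 bins were joined into 962700 regions, and 100% matched the deposited summary. Its 4 columns of tags and mutations per condition could not be matched to a genotype and were left out, after their values had been seen; a region's distance is taken from its centre. Intervals for counting error were not needed, as no share of reads is reported. Values of every library were given for genes with an unadjusted limma p under 0.05, without overlap, or with the lowest p of their role group, and for others chosen after their values were seen (Rnf8, H2afx, Ywhaz and Nhej1); up to 10 genes by region score were named. Alternatives were TMM scaling, no filter, a mean of at least 50, a pseudocount of 10, edgeR, DESeq2, the replicate number as a block, each library left out, KO 1 and KO 3 left out, a span and GC correction by splines with 4 degrees of freedom, and for CLIP a score of at least 10, a width of at least 20 nt and regions inside 1 gene. Python 3.11.15, pandas 2.3.3 and matplotlib 3.10.9 were used. Values of 1 gene of the pathway lists are not reported here.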

Additional observations from a re-analysis of the deposited data

Results flagged for a closer look

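A single library stood far from the other 3 of its group in 2 of the 64 groups of 4 values looked at (32 genes, 2 genotypes), where chance flags about 1 group in 20. Apex1 had 5823 normalized counts in Flox 1, against 4852 to 4975 in the other Flox libraries. Msh6 had 6970.0 normalized counts in Flox 1, against 6004.8 to 6160.0 in the other Flox libraries. Both are in the same library, and neither gene had an unadjusted p under 0.05 between KO and Flox.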

How the results depend on the processing

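The count of called genes among the 32 was 0 in the main test and under the 17 alternatives run for RNA-seq. Over all genes DESeq2 called 199, against 9 in the main test; the cause was not tested. With 1 library left out in turn the count over all genes ran from 8 to 17 (17 without KO 2, 14 without KO 4), and the count of the 32 with an unadjusted p under 0.05 ran from 3 to 8 (8 without KO 2, 3 without Flox 3 and 3 without Flox 4). That count was 2 without KO 1 and KO 3 and 8 with the span and GC correction, against 5. The share of all tested genes with an unadjusted p under 0.05 moved as well. It ran from 7.71% (without Flox 3) to 21.1% (without KO 2) with 1 library left out. It was 6.22% without KO 1 and KO 3 and 15.8% with the span and GC correction, against 15.1% in the main test. With a region score of at least 10 in place of 5, 56 Ago2 regions in 16 of the 32 were left, 1.75 per gene, against 165 in 28 and 5.16 per gene. The share of all tested genes at a score of at least 10 was not computed, so the count of 16 has no background.

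Same-numbered KO and Flox libraries did not move together over all tested genes (correlations of -0.094, -0.065, -0.050 and 0.003 between their deviations from the group means). Between libraries of different numbers the correlations ran from -0.161 (KO 3 with Flox 4) to 0.224 (KO 4 with Flox 3). Correlations over all genes cannot exclude a pairing or a shared batch that acts on part of the genes. The replicate block moved the count over all genes to 11 and left that of the 32 at 0.

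Log2 fold changes of the 32 kept their sign in 515 of 544 values. The 29 that turned belonged to 13 genes. Those that turned with KO 1 and KO 3 left out were Msh6 (-0.0084), Pms2 (-0.050), H2afx (0.081), Xrcc6 (0.033) and Dclre1c (-0.11), and with the span and GC correction Apex2 (-0.034), H2afx (0.049) and Xrcc5 (-0.071). With 1 library left out in turn the ranges were Ung -0.044 to 0.11, Apex1 -0.090 to 0.19, Apex2 -0.045 to 0.13, Msh6 -0.049 to 0.11, Pms2 -0.086 to 0.056, Exosc3 -0.00017 to 0.15, H2afx -0.32 to 0.12, Nbn -0.0042 to 0.063, Mre11a -0.087 to 0.016, Parp1 -0.0033 to 0.066, Xrcc5 -0.032 to 0.076, Xrcc6 -0.11 to 0.0044 and Dclre1c -0.060 to 0.17. None of these genes had an unadjusted p under 0.05 in the main test.

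The 32 had at least 76 reads in each library, Nhej1 and Rnf8 the fewest. Gene levels were not compared with each other, since no transcript lengths were used. The Ago2 values have no replicates.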
